A study of Mus musculus with 6 samples.

Results

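Loss of Ezh2 was examined in mouse embryonic fibroblasts that keep the Ink4a/Arf locus, by setting the level of each probe set on the Ink4a/Arf+/+ Ezh2 -/- array against its level on the Ink4a/Arf+/+ Ezh2 fx/fx array. These are 2 of the 6 arrays of the study, 1 for each genotype, and all 23346 probe sets were used. The other 4 arrays hold Ink4a/Arf-/- cells, 2 labelled Ezh2 -/- and 2 labelled Ezh2 fx/fx, and served as a measure of the spread between arrays and as the other background. All cells were embryonic fibroblasts, connective tissue cells grown from mouse embryos, of the Ola129 strain, cultured with 15% serum and leukemia inhibitory factor and collected in exponential growth. RNA was labelled with biotin and hybridised to Affymetrix whole-transcript arrays. The titles give genotypes while the text on the series mentions esiRNA against Ezh2, and the titles, which head the deposited columns, were used here. Neither the age of the embryos, nor how Ezh2 was removed, nor how many embryos, clones or cultures stand behind an array is given in the labels. With 1 array per genotype, a difference between the genotypes and one between the cultures cannot be told apart, no difference has a replicate check, and no p-value is given for this contrast.

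Ezh2 is the main methyltransferase of Polycomb repressive complex 2, which marks histone tails at silent developmental genes such as those of the Hox clusters, and Polycomb repressive complex 1 binds that mark. The Ink4a/Arf locus, named Cdkn2a on the arrays, is a classical Polycomb target in cultured fibroblasts. Its products are Ink4a, an inhibitor of cyclin-dependent kinases that keeps the retinoblastoma protein active, and Arf, which stabilises p53.

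Against this background the targeted genes were read first. Ezh2 was at a log2 level of 10.12 in Ezh2 -/- and 10.48 in fx/fx cells, a log2 difference of -0.36. In Ink4a/Arf-/- cells the Ezh2 -/- arrays gave 10.62 and 10.51 and the fx/fx ones 10.92 and 10.91, a difference of -0.35. The Ezh2 differences of the backgrounds were 0.009 apart, with Ink4a/Arf+/+ the more negative (limma, difference of differences -0.009 ± 0.13 SE, Benjamini-Hochberg adjusted p = 0.990). The position of the probes within the gene was not tested against the deletion, so this level does not check the label. Cdkn2a was at 8.62 in Ezh2 -/- and 7.91 in fx/fx cells, a log2 difference of 0.71, against -0.08 in Ink4a/Arf-/- cells, and the change between backgrounds of 0.79 ± 0.14 (SE) did not pass (limma, adjusted p = 0.117). The label gives this locus as lost in Ink4a/Arf-/- cells, so the test cannot say whether it responds alike in both backgrounds. On the arrays of Ink4a/Arf-/- cells, the Cdkn2a probes gave 8.11 and 8.20 for Ezh2 -/- and 8.29 and 8.18 for fx/fx, near the array medians of 8.25 to 8.32, and these levels do not check the label of the locus either. Its neighbour Cdkn2b, which encodes Ink4b, was at 9.31 and 8.69, a difference of 0.62.

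The cells carried fibroblast transcripts on both arrays. Vimentin (Vim) was at 14.15 and 14.16, fibronectin (Fn1) at 14.23 and 14.24 and type I collagen (Col1a1) at 13.52 and 13.65, where the medians of the arrays were 7.51 and 7.50. Of the 12 fibroblast markers 10 were lower on the Ezh2 -/- array, where 47.2% of all genes were, with a median log2 difference of -0.08. The receptor gene Pdgfra was the 1 at least 2-fold lower, where 0.256% of all genes were. Cartilage genes were also high on both arrays, with type II collagen (Col2a1) at 13.16 and 12.96 and Sox9 at 12.50 and 12.38. Both arrays carried Y-linked transcripts, with Ddx3y at 10.14 and 10.09, and Xist, made from the inactive X chromosome of female cells, was at 4.54 and 4.36. Defining leukocyte genes were dim, Ptprc at 5.71 and 5.41, and so were the endothelial gene Cdh5 at 6.02 and 5.92 and the epithelial gene Epcam at 5.79 and 5.64. In bulk RNA fewer cells of a type and less RNA per cell cannot be told apart, here or below.

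The 2 arrays of Ink4a/Arf+/+ cells lay further apart than replicate arrays did. The replicates are in the other deposited table, with array medians of 8.25 to 8.32 against 7.51 and 7.50. Whether the processing of the 2 tables affects this comparison of spreads was not tested. In all, 186 of 23346 probe sets (0.797%) were at least 2-fold higher on the Ezh2 -/- array and 73 (0.313%) at least 2-fold lower, together 1.11%. Between the replicate arrays of Ink4a/Arf-/- cells 15 probe sets (0.0643%) differed by 2-fold for Ezh2 -/- and 37 (0.158%) for fx/fx, and 0.386% and 0.887% by 1.5-fold. Single Ezh2 -/- arrays set against single fx/fx arrays of those cells gave between 18 and 51 probe sets at 2-fold, with shares of 0.0771%, 0.15%, 0.184% and 0.218%, and the means of those arrays gave 0.0728%. The SD of the log2 differences over all probe sets was 0.286 in Ink4a/Arf+/+ cells and 0.140 and 0.189 between the replicates. Counted by gene, each through its brightest probe set on average, 162 of 20723 genes (0.782%) lay at or above 2-fold and 53 (0.256%) at or below it, together 1.04%, and the median gene differed by 0.0062. At 1.5-fold the shares were 2.62% higher and 1.64% lower by gene, and 2.64% and 1.83%, together 4.47%, by probe set. Within the 2-fold threshold on the higher side lay the matrix gene Mfap5 at 1.004 and Pax1 at 1.005, and just outside it As3mt and Adamts9 at 0.995. On the lower side the transporter Abcc4 at -1.0002 lay inside and Ank at -0.98 outside.

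**Figure D1:**
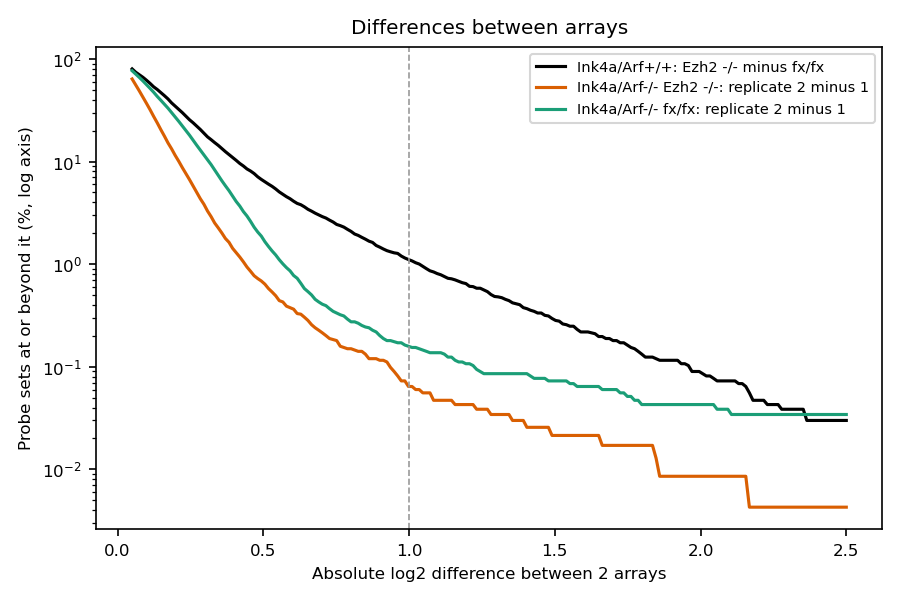
Share of all 23346 probe sets (percent, log axis) whose log2 levels on a pair of arrays differ by at least the value on the x axis, for Ezh2 -/- against fx/fx in Ink4a/Arf+/+ cells (black) and for the replicate pairs of Ink4a/Arf-/- Ezh2 -/- (orange) and fx/fx cells (green). At the dashed line of 2-fold the black curve is at 1.11% and the replicate curves are at 0.0643% and 0.158%.

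The gene with the largest positive difference encodes a retinoid enzyme. Aldh1a1, which oxidises retinaldehyde to retinoic acid, was at 11.28 in Ezh2 -/- and 8.25 in fx/fx cells, a log2 difference of 3.03. Its neighbour and close paralogue Aldh1a7 was at 10.31 and 7.70, a difference of 2.61, and whether the probes tell the paralogues apart was not tested. The remaining retinoid genes differed by less. Of 26 measured, 17 were higher, where 51.1% of all genes were, and 9 lower, with a median of 0.20. Adh1, an alcohol dehydrogenase, at 0.88, Cyp26b1, which degrades retinoic acid, at 0.86 and Rarres1 at 0.66 followed.

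The upstream sequences of the Aldh1a pair and of the Rgs5 and Rgs4 pair are shown because in each pair adjacent genes were higher together. Each sequence holds the 250 bases before the start of the gene in RefSeq, build GRCm38.p6, written 5′ to 3′ on the strand of the gene, with every CG dinucleotide in capitals. Aldh1a1 has more than 1 listed start, and the sequence is that of the most 3′ one, at chr19:20601718-20601967 on the plus strand. Aldh1a7 lies at chr19:20727557-20727806 on the minus strand, Rgs5 at chr1:169655251-169655500 on the plus strand and Rgs4 at chr1:169747643-169747892 on the minus strand.
Aldh1a1: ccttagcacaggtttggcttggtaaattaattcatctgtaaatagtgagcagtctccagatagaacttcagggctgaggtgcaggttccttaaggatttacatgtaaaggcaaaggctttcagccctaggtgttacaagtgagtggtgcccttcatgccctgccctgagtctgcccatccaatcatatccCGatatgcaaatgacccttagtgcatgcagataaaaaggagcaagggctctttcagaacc
Aldh1a7: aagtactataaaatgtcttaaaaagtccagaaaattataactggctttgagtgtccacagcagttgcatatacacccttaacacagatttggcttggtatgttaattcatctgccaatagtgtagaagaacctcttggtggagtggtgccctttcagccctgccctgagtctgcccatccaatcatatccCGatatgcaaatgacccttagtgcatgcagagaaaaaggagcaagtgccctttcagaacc
Rgs5: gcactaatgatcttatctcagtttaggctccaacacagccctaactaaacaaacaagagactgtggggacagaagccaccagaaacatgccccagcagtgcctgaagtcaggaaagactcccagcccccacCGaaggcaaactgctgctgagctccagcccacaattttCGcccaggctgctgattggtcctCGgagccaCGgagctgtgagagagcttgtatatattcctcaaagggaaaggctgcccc
Rgs4: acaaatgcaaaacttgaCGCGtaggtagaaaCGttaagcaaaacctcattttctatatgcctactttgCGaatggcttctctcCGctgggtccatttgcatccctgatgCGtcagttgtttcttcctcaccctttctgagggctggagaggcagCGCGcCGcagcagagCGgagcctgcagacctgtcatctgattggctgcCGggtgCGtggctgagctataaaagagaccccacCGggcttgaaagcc
Of the last 100 bases before the start, 94 were identical between Aldh1a1 and Aldh1a7 when aligned without gaps, and 24 between Rgs5 and Rgs4. The sequences held 1 CG in each Aldh1a gene, 4 in Rgs5 and 13 in Rgs4. Across the 13121 measured genes with a single listed promoter the median was 11 CG dinucleotides in these 250 bases, and 53.8% held at least 10. Among the 80 such genes that were at least 2-fold higher the median was 7 and 43.8% held at least 10, and among the 29 that were at least 2-fold lower the median was 6 and 41.4% held at least 10.

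Other genes near the top encode signalling, lipid-binding and surface proteins. Odz1, a teneurin that spans the membrane of neurons, was at 9.26 in Ezh2 -/- and 6.30 in fx/fx cells, a log2 difference of 2.97. Rgs5, a regulator of G-protein signalling typical of pericytes, was at 12.53 and 10.17, a difference of 2.36, and its neighbour Rgs4 at 10.93 and 9.85, a difference of 1.08. These were the 2 of 20 measured RGS genes past 2-fold, where 1.04% of all genes were, and the list's median was 0.06. The 9 markers of smooth muscle and pericytes, Rgs5 among them, had a median of -0.04 with 4 higher and 5 lower, and the pericyte genes Abcc9 at 0.51, Cspg4 at -0.04 and Kcnj8 at -0.04 stayed under 1.5-fold. Angptl1, a secreted angiopoietin-like protein, was at 9.12 and 6.76, a difference of 2.36. Among 10 measured fatty acid binding proteins 8 were higher, where 51.1% of all genes were, with a median of 0.17. Fabp7, known from radial glia, was at 9.20 and 6.93, a difference of 2.27, and Pmp2, the fatty acid binding protein of myelin, at 9.44 and 7.27, a difference of 2.18. Fabp4, typical of fat cells, at 0.77 and Fabp5 at 0.75 stayed under 2-fold.

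The highest 15 named genes were completed by the transporter gene Slc22a23 at 2.17, the phosphatase gene Ptprq at 2.15, Csdc2, which encodes a cold-shock domain protein, at 2.13, Prdm6, a repressor of the PR-domain family, at 2.02, and Abat, which breaks down GABA, at 1.96, beside genes of the groups below. Every one of them was brighter than the array median on the Ezh2 -/- array, as the rule for naming requires, and 10 of the 15 were also brighter than the median on the fx/fx array.

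**Figure D2:**
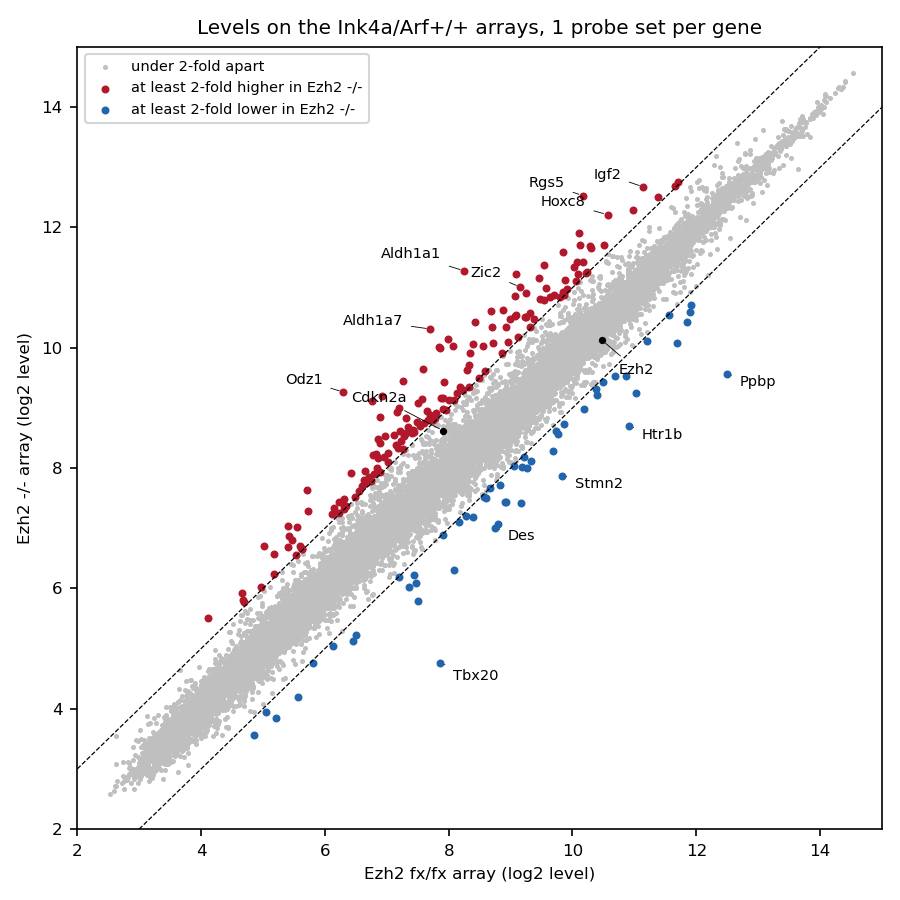
Log2 level of 20723 genes, 1 probe set each, on the fx/fx array (x axis) and the Ezh2 -/- array (y axis) of Ink4a/Arf+/+ cells, with dashed lines at 2-fold. The 162 genes at least 2-fold higher (red) and the 53 at least 2-fold lower (blue) lie outside the lines, and Ezh2 and Cdkn2a (black) lie inside them.

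Hox genes, which give cells their position along the body axis and are a textbook set of Polycomb targets, were higher nearly throughout. Of 39 measured, 37 were higher and 2 lower, with a median log2 difference of 0.48, while 51.1% of all genes were above 0. The Hoxc cluster stood at the head with 9 of 9 genes higher and a median of 1.02. Hoxc8 was at 12.21 in Ezh2 -/- and 10.57 in fx/fx cells, a difference of 1.65. Hoxc9 was at 9.14 and 7.57, a difference of 1.57, and Hoxc10 at 8.24 and 6.82, a difference of 1.42. Hoxc6 at 1.06 and Hoxc12 at 1.02 also passed 2-fold, while Hoxc4 at 0.27 and Hoxc13 at 0.25, which lie towards the ends of the cluster, did not.

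In the other clusters the 2-fold genes were Hoxa9 at 1.16, Hoxa10 at 1.05, Hoxb9 at 1.24 and Hoxd10 at 1.14, and the medians were 0.53 for Hoxa, 0.34 for Hoxb and 0.36 for Hoxd. By paralogue group, 0 of 12 genes of groups 1 to 4 reached 2-fold, with a median of 0.23, against 5 of 15 in groups 5 to 9, with a median of 0.87, and 4 of 12 in groups 10 to 13, with a median of 0.69. The 2 Hox genes that were lower, Hoxa2 at -0.27 and Hoxa3 at -0.15, belong to the anterior groups. In Ink4a/Arf-/- cells the same 39 genes had a median difference of -0.07, with 33 of them lower, where 60.4% of all genes were. The median over all genes there was -0.025. Between replicates of those cells the 39 genes had medians of -0.04 for Ezh2 -/- and -0.09 for fx/fx. The partners with which Hox proteins bind DNA went both ways, with Meis1 at -0.84, Meis2 at -0.49 and Pknox2 at 0.73 and a median of 0.11 over 9 genes.

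**Figure D3:**
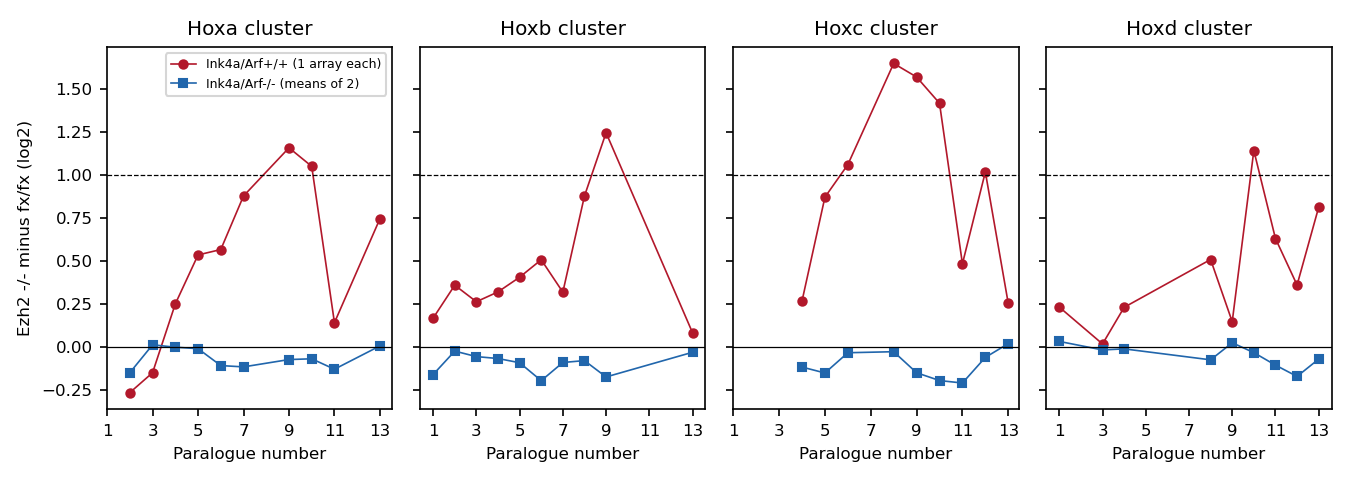
Log2 difference (Ezh2 -/- minus fx/fx) of Hox genes against its paralogue number, 1 panel per cluster, in Ink4a/Arf+/+ cells (red circles, 1 array each) and Ink4a/Arf-/- cells (blue squares, means of 2 arrays). Red points pass the dashed 2-fold line in 9 genes, most of them of the Hoxc cluster, with Hoxc8 the highest at 1.65, and blue points lie nearer 0 than the red ones for those 9 genes.

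Homeobox and zinc-finger factors of the Msx, Dlx and Zic families were higher in 11 of 14 genes, where 51.1% of all genes were, with 6 at least 2-fold higher, where 0.782% of all genes were, and a median of 0.62. Zic5 was at 9.64 in Ezh2 -/- and 7.59 in fx/fx cells, a log2 difference of 2.05, although its other probe set differed by 0.58. Its neighbour Zic2, a factor of the dorsal neural tube, was at 11.01 and 9.16, a difference of 1.85. The second Zic gene pair was higher as well, Zic4 by 1.28 and Zic1 by 1.14, and the other probe set of Zic4 differed by 0.11. Msx2, which acts in skull and limb bone, was at 8.85 and 6.89, a difference of 1.96, and the bone factor Dlx5 at 9.17 and 7.91, a difference of 1.26. Msx1 at 0.09 and Dlx3 at -0.03 did not follow them.

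T-box factors held the lowest gene of the whole comparison. Tbx20, a factor of the developing heart, was at 4.76 in Ezh2 -/- and 7.87 in fx/fx cells, a log2 difference of -3.11. Tbx3 was at 8.03 and 9.06, a difference of -1.03, and Tbx1 differed by -0.89, while the limb factors Tbx5 at 0.46 and Tbx4 at 0.32 were higher, and the median of the 16 genes was 0.04. Among 19 genes of the Pax, Eya and related families the cofactor Eya2 at 1.34 and Pax1, a factor of the sclerotome, at 1.005 were at least 2-fold higher and the kidney and thyroid factor Pax8 was at least 2-fold lower at -1.02. In 48 Lim, Irx, Gata, Fox and Sox genes the median was 0.07. The 1 past 2-fold, where 1.04% of all genes were, was Sox11, at 8.57 and 9.76 with a difference of -1.20. It was followed by Foxp2 at 0.97, Gata6 at 0.91, Sox5 at 0.88 and Lhx9 at -0.85.

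Polycomb subunits themselves differed little. In Polycomb repressive complex 2, 9 of 10 genes were lower, where 47.2% of all genes were, with a median of -0.22. Suz12, a core subunit, was at 10.31 and 10.68, a log2 difference of -0.37, close to that of Ezh2, and Eed, the other core subunit, differed by -0.20. The accessory subunits Phf19 and Aebp2 differed by -0.27 each and Mtf2 by -0.23, whereas Ezh1, the second methyltransferase, differed by -0.05 and Phf1 was the 1 higher gene at 0.20. Polycomb repressive complex 1 was split, with 10 of 18 genes higher and a median of 0.02. Bmi1, a repressor of Ink4a/Arf, was at 9.76 and 9.30, a difference of 0.46, and Pcgf6 at -0.31 was the lowest. No gene of either complex reached 1.5-fold, a threshold passed by 4.26% of all genes.

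Cell cycle genes were lower across their lists without large single differences. All 30 mitosis genes were lower, with a median log2 difference of -0.48, where 47.2% of all genes were below 0. Mki67, the antigen used to mark cycling cells, was at 10.73 in Ezh2 -/- and 11.69 in fx/fx cells, a difference of -0.96. The kinetochore motor Cenpe was at 9.09 and 9.83, the spindle kinase Ttk at 7.55 and 8.29, and the spindle motor Kif11 at 10.01 and 10.71, differences of -0.74, -0.74 and -0.69. None of the 30 reached 2-fold and 10 were at least 1.5-fold lower, where 1.64% of all genes were. Of 54 DNA replication genes 53 were lower, with a median of -0.37 and 9 past 1.5-fold. Uhrf1, which carries DNA methylation through replication, was at 8.67 and 9.44, a difference of -0.76, followed by the kinase activator Dbf4 at -0.75, the polymerase subunit Pole at -0.72, the helicase subunit Mcm6 at -0.67, the origin protein Orc1 at -0.64 and the polymerase subunit Pole2 at -0.64. The 1 replication gene that was higher was Rpa3, a subunit of the single-strand binding protein, at 0.13.

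The G1 regulators around these lists were mixed. Of 24 G1 cyclins, kinases and E2F factors 15 were lower, where 47.2% of all genes were, with a median of -0.05. E2f8 at -0.71, Rbl1 at -0.59 and E2f7 at -0.57 were lower, and the cyclin genes Ccnd3 at 0.62 and Ccnd2 at 0.44 and the kinase gene Cdk6 at 0.46 were higher. Cdkn1a, the p53-induced inhibitor p21, was at 13.04 and 12.29, a difference of 0.75. With Cdkn2a and Cdkn2b it made up the 3 CDK inhibitors of 7 at least 1.5-fold higher, where 2.62% of all genes were. Cdkn1b, the inhibitor p27, differed by -0.36. Of 26 p53 targets 23 were higher, where 51.1% of all genes were, with a median of 0.38. At least 1.5-fold higher were 8, against 2.62% of all genes. The death receptor gene Eda2r was at 8.60 and 7.44, a difference of 1.15, and Fas was at 8.24 and 7.26, a difference of 0.98. Trp53inp1 at 0.90, Btg2 at 0.78 and the polymerase gene Polk at 0.64 came next. The 3 that were lower were Plk2 at -0.27, Pmaip1 at -0.13 and Gadd45a at -0.03.

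Replication-dependent histone genes, which are transcribed in S phase, were lower in 35 of 40, where 47.2% of all genes were, with a median of -0.36. Hist2h2ab was at 8.02 and 9.18, a difference of -1.16, and was the 1 past 2-fold, and the linker histone gene Hist1h1b was at 10.42 and 11.17, a difference of -0.75. The 5 that were higher were Hist1h2ac at 0.79, Hist2h3c1 at 0.65, Hist1h1c at 0.37, Hist1h2bg at 0.36 and Hist1h2bp at 0.06. Histone genes are near-identical copies whose probes may take up each other's transcripts, so single histone values are uncertain.

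Lipid synthesis genes were lower alongside the cell cycle genes. Of 30 genes of cholesterol and fatty acid synthesis 29 were lower, where 47.2% of all genes were, with a median of -0.29. Elovl6, which lengthens fatty acids, was at 10.05 in Ezh2 -/- and 10.97 in fx/fx cells, a difference of -0.92. The desaturase Scd1 differed by -0.72 and Lss, which closes the sterol ring, by -0.64, and the 1 higher gene was Hsd17b7 at 0.05. None reached 2-fold and 4 were at least 1.5-fold lower, where 1.64% of all genes were. The 68 cytosolic ribosomal protein genes had a median of -0.05, and the 27 NRF2 targets a median of -0.05.

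The upstream sequences of 6 genes from these lower lists are shown for the CCAAT motif, the box bound by the factor NF-Y, searched as CCAAT on both strands, so that ATTGG is the same motif on the other strand. Each holds the 250 bases before the start in RefSeq, build GRCm38.p6, 5′ to 3′ on the strand of the gene, with the motif in capitals. Mki67 lies at chr7:135716380-135716629 on the minus strand, Kif11 at chr19:37376132-37376381 on the plus strand, Cenpe at chr3:135212313-135212562 on the plus strand, Mcm6 at chr1:128359706-128359955 on the minus strand, Lss at chr10:76531355-76531604 on the plus strand, and Hist1h1b, H1f5 in RefSeq, at chr13:21780626-21780875 on the minus strand.
Mki67: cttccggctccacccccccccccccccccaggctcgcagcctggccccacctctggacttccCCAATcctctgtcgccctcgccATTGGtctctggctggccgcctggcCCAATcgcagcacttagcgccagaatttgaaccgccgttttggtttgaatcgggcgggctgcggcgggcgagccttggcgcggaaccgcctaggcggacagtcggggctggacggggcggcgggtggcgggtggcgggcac
Kif11: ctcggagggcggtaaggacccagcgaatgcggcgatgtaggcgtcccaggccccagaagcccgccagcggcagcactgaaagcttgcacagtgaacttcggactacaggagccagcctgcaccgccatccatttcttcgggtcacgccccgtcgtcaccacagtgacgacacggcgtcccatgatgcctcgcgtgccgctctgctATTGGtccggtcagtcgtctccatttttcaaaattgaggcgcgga
Cenpe: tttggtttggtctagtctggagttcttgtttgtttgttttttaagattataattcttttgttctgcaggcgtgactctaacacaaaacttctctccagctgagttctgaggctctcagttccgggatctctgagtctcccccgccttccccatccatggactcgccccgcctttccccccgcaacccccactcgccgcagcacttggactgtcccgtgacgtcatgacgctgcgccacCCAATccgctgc
Mcm6: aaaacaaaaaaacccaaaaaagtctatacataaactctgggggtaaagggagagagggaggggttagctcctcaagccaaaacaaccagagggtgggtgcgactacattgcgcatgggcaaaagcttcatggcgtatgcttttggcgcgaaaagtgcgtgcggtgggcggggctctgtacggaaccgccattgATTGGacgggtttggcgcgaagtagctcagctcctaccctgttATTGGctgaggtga
Lss: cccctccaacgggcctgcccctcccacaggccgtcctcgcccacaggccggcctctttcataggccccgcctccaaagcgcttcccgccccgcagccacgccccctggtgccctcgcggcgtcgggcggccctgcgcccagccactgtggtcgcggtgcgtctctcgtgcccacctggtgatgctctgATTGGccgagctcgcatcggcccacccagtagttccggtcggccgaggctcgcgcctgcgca
H1f5: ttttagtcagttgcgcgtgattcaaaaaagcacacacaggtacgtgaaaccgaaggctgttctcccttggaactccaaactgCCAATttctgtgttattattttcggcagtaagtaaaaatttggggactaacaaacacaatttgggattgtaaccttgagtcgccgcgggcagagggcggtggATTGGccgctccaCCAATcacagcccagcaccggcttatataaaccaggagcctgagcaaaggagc
The motif occurred in the 250 bases of 36.5% of the 13121 measured genes with a single listed promoter. It occurred in 17 of 23 such mitosis genes (73.9%), 21 of 35 replication genes (60.0%), 27 of 34 histone genes (79.4%) and 14 of 17 genes of lipid synthesis (82.4%). Among other sets it occurred in 53.3% of 15 p53 targets, 34.5% of 29 collagens, 24 of the 80 genes past 2-fold on the higher side and 12 of the 29 on the lower side (41.4%). Other motifs were searched in the same windows on both strands. TTTGAA occurred in 14.5% of all these genes, 26.1% of the mitosis, 8.57% of the replication, 38.2% of the histone and 5.88% of the lipid synthesis genes. TTTNNCGC occurred in 5.78% of all, 4.35% of the mitosis, 22.9% of the replication, 20.6% of the histone and 5.88% of the lipid synthesis genes. TATAAA occurred in 12.4% of all, 0 of the mitosis and lipid synthesis genes, 2.86% of the replication genes and 55.9% of the histone genes. TCACNCCAC occurred in 0.976% of all and, among these lists, in 1 of the 17 lipid synthesis genes. Overlaps between motifs were not removed. A match describes the letters in this window and is no evidence of binding.

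Matrix genes went both ways, with large differences in a few. Elastin (Eln) was at 11.37 in Ezh2 -/- and 9.54 in fx/fx cells, a log2 difference of 1.84, and the microfibril gene Mfap5 at 10.87 and 9.87. Of the elastic fibre genes 2 were at least 2-fold lower, where 0.256% of all genes were. They were Ltbp4, which binds latent TGF-beta, at 9.52 and 10.87, a difference of -1.35, and fibulin-1 (Fbln1) at 9.21 and 10.39, a difference of -1.18. Of the 23 genes on the list 13 were higher and 9 lower, with a median of 0.01. Decorin (Dcn) was at 10.02 and 8.56, a difference of 1.46, and dermatopontin (Dpt) at 6.31 and 8.09, a difference of -1.78. Both belong to a list of 18 genes, made up of small proteoglycans and dermatopontin, with a median of 0.12. Epyc at 0.90 and lumican (Lum) at 0.74 were higher too.

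Of 40 collagen genes 1 was past 2-fold, where 1.04% of all genes were. It was Col10a1 of hypertrophic cartilage, at 10.55 and 9.08 with a difference of 1.47. Col6a3 at -0.79 and Col8a1 at 0.74 came next, and the median was 0.04. The cartilage protein Comp was at 10.99 and 9.58, a difference of 1.41, and thrombospondin-2 (Thbs2) at 12.75 and 11.70, a difference of 1.05, while Tgfbi differed by -0.97 and periostin (Postn) by -0.68. Collagenase-3 (Mmp13) was at 8.21 and 6.78, a difference of 1.43, and was the 1 of 27 metalloproteinase and inhibitor genes past 2-fold. Osteoblast markers were higher in 6 of 7 genes, where 51.1% of all genes were, with a median of 0.29. Alkaline phosphatase (Alpl) was at 8.83 and 7.31, a difference of 1.52, Sp7 differed by 0.72 and Runx2 by 0.39. Osteocalcin (Bglap), a late marker, was at 6.42 and 6.38.

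A muscle gene and a few genes known from neurons were among the lowest, while lists of such genes were split. Desmin (Des), an intermediate filament of muscle, was at 7.01 in Ezh2 -/- and 8.75 in fx/fx cells, a difference of -1.75, and the smooth muscle myosin Myh11 at 8.37 and 9.19, a difference of -0.81. The other contractile genes differed by less. Of the 22 on that list 15 were lower, where 47.2% of all genes were, with a median of -0.08. Of 8 skeletal muscle markers 3 were higher and 5 lower, and of 8 cardiomyocyte markers 4 were higher and 4 lower. Both of these lists had a median of -0.02. Stmn2, a microtubule regulator of neurons, was at 7.87 and 9.84, a difference of -1.96, and Htr1b, a serotonin receptor, at 8.69 and 10.92, a difference of -2.23. The synaptic adhesion gene Lrrtm3 differed by -1.78, the protease Adamts15 by -1.72, the interleukin-33 receptor Il1rl1 by -1.61, Dock11 by -1.47 and the growth-arrest gene Gas1 by -1.42. Neuronal markers other than Stmn2 were all under 1.5-fold apart. Of the 8 measured 3 were higher and 4 lower, with a median of -0.007. Pdgfra, a receptor of mesenchymal cells, was at 8.28 and 9.69, a difference of -1.41.

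Secreted signals went both ways. The chemokine genes Ppbp and Cxcl5, which are neighbours, were both lower, Ppbp at 9.57 and 12.50, a difference of -2.93, and Cxcl5 at 5.79 and 7.51, a difference of -1.72. The T-cell chemokine Ccl17 was at 11.70 and 10.12, a difference of 1.58, and the median of 47 chemokine and receptor genes was -0.03. Secreted factors known from senescent cells had a median of 0.02 over 28 genes, with Igfbp5 at 0.72, Hgf at 0.67 and Lif at 0.58. The urokinase gene Plau, at 9.43 and 10.49, was the 1 past 2-fold at -1.06, where 1.04% of all genes were past it either way. The 29 interferon-stimulated genes had a median of 0.03 with Ifi44 the largest at 0.82.

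Growth factor pathways held several higher genes. In the IGF axis the growth factor gene Igf2 was at 12.67 in Ezh2 -/- and 11.14 in fx/fx cells, a difference of 1.53. Pappa2, a protease that frees IGFs from their binding proteins, was at 10.14 and 7.98, a difference of 2.16, and its other probe sets differed by between 1.963 and 1.999. Of the 19 genes of the axis 14 were higher, where 51.1% of all genes were, with a median of 0.15. Among them were the binding proteins Igfbp5 at 0.72 and Igfbp4 at 0.65. Among 53 Wnt pathway genes 5 were at least 2-fold higher and 0 lower, against 0.782% and 0.256% of all genes, with a median of 0.09, and 4 of the 5 act against Wnt signals. They were the secreted antagonists Frzb, at 8.42 and 6.89 with a difference of 1.52, Sfrp2 at 1.35 and Sfrp4 at 1.26, and the intracellular inhibitor Nkd1 at 1.32, while the fifth, Rspo3, at 1.04, enhances Wnt signals. Among 48 TGF-beta and BMP genes 1 was at least 2-fold higher, and it also passed the limma test between backgrounds described below. The median was 0.10, and under 2-fold Gdf10 differed by 0.85 and Bmp2 by 0.80. The receptor gene Erbb4, at 6.23 and 5.17, differed by 1.06.

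Imprinted, adipogenic and germline genes completed the lists. Igf2 and Dcn, described above, and Zdbf2 at 1.26 were the 3 of 37 imprinted genes past 2-fold, Nnat was lowest at -0.90, and the median was 0.10. Of all genes 1.04% were past 2-fold and 4.26% past 1.5-fold. Lipoprotein lipase (Lpl) at 1.20 and Ebf2 at 1.10 were the 2 of 25 adipogenic genes past 2-fold, while the other probe set of Ebf2 read the same on both arrays and the fat cell gene Adipoq was at 4.68 and 5.08. Among 35 germline genes, often silenced by DNA methylation, 0 reached 1.5-fold, with Tex19.1 at -0.43 and Pou5f1 at 0.39 the furthest from 0. The lysozyme gene Lyz2, a myeloid marker, was at 7.29 and 5.72, a difference of 1.56, and the other 7 leukocyte markers differed by between -0.28 and 0.30.

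**Figure D4:**
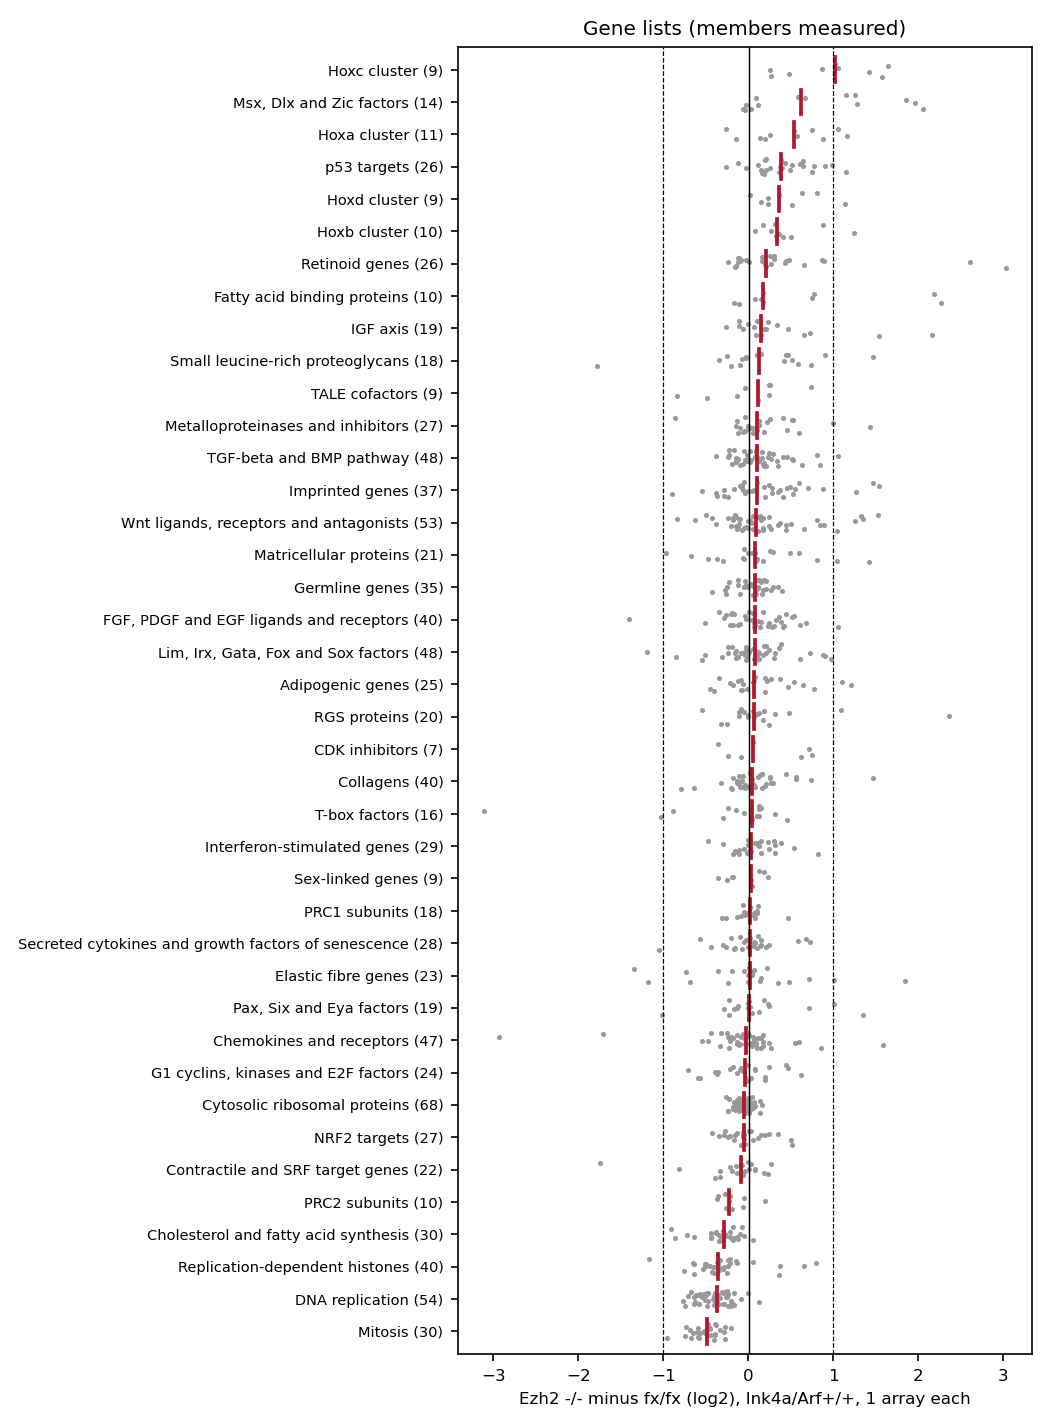
Log2 difference (Ezh2 -/- minus fx/fx, Ink4a/Arf+/+, 1 array each) of each measured member (grey points) of the gene lists, ordered by the median (red bar), with the number measured in brackets and dashed lines at 2-fold. The Hoxc cluster lies highest with a median of 1.02 and the mitosis genes lowest with a median of -0.48, all 30 of them below 0.

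Some genes past 2-fold lay close to one another. Of the 213 that RefSeq places, 41 had another within 3 measured genes along the chromosome, in 26 pairs, and 23 of these pairs lay on the same side of 0. Beside the pairs named above these included the serpins Serpinb6b at 1.79, Serpinb9 at 1.04 and Serpinb9b at 1.33, the semaphorins Sema3d at 1.93 and Sema3e at 1.27, Zdbf2 and Adam23 at 1.19, and Heph at 1.93 with Eda2r. In 3 pairs the neighbours went opposite ways, Hapln1 at 1.07 with Vcan at -1.10, Pde1a at -1.20 with Frzb, and Sema3e with Speer4d at -1.10. These pairs were picked by their values, so they are a description, and how many such pairs other genes form was not tested.

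The Ink4a/Arf-/- arrays, on which none of these genes was chosen, gave mostly small differences for them. Of the 162 genes at least 2-fold higher in Ink4a/Arf+/+ cells, 124 were also higher in Ink4a/Arf-/- cells, where 39.6% of all genes were, and 91 had both Ezh2 -/- arrays above both fx/fx arrays, where 13.4% of all genes did. Their median difference there was 0.14, against -0.025 over all genes. Ano3, an anoctamin, was the 1 gene at least 2-fold higher in both, by 1.69 and 1.30. Of the 53 genes at least 2-fold lower, 31 were lower in Ink4a/Arf-/- cells, where 60.4% of all genes were, and 17 had both Ezh2 -/- arrays below both fx/fx arrays, where 23.2% of all genes did. Their median there was -0.041 and 0 were 2-fold lower. For the lower genes the first of these shares lies near that of all genes and the second somewhat above it.

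Several lists had the same sign of median in both backgrounds with a smaller size in Ink4a/Arf-/- cells. The median of the mitosis genes was -0.48 in Ink4a/Arf+/+ and -0.18 in Ink4a/Arf-/- cells, of the replication genes -0.37 and -0.17, of the p53 targets 0.38 and 0.17, and of the lipid synthesis genes -0.29 and -0.07. The value of -0.07 is close to the lipid synthesis medians between replicates, -0.06 for Ezh2 -/- and -0.06 for fx/fx. Over all genes the median in Ink4a/Arf-/- cells was -0.025. In those cells 30 of 30 mitosis, 53 of 54 replication and 28 of 30 lipid synthesis genes were lower. Of all genes 60.4% were lower there. Of the 26 p53 targets 23 were higher there, where 39.6% of all genes were. Between replicates (Ezh2 -/- and fx/fx) the mitosis medians were -0.004 and 0.007. Those of the replication genes were -0.05 and -0.03, and those of the p53 targets -0.02 and -0.02. The Msx, Dlx and Zic factors had 0.62 and -0.003. Whether a list's median differs between backgrounds was not tested.

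The difference between the backgrounds was tested for each probe set in limma, over all 6 arrays, with the spread taken from the Ink4a/Arf-/- replicates, which the lone arrays are assumed to share. The Ezh2 difference was more positive in Ink4a/Arf+/+ cells for 64 probe sets (0.274%) and more negative for 31 (0.133%) at a Benjamini-Hochberg adjusted p below 0.05, together 0.407%, and 2605 had an unadjusted p below 0.05. These counts lean on single arrays. They were 28 and 16 without Ink4a/Arf-/- Ezh2 -/- replicate 2, 36 and 16 without its replicate 1, and 168 and 77 without fx/fx replicate 2.

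The genes named here were mostly chosen for their difference in Ink4a/Arf+/+ cells, which enters the tested value through 1 array per arm. Their p-values are therefore no independent evidence, and genotype and culture cannot be told apart by them. Aldh1a1 passed, with Ink4a/Arf-/- levels of 6.63 and 6.42 for Ezh2 -/- against 6.59 and 6.49 for fx/fx, a difference of differences of 3.05 ± 0.17 (SE; limma, adjusted p = 0.0141). Odz1 passed too, with 5.77 and 5.75 against 5.83 and 5.70 there and a difference of differences of 2.97 ± 0.14 (limma, adjusted p = 0.00613). For both genes the Ink4a/Arf-/- groups overlapped. Tbx20 was at 6.33 and 6.34 against 6.49 and 6.39 in Ink4a/Arf-/- cells, and its difference of differences was -3.004 ± 0.13 (limma, adjusted p = 0.00581). It was below the array medians of 8.25 to 8.32 there. On the Ink4a/Arf+/+ fx/fx array it was at 7.87, above the median of 7.50. Whether its low level in Ink4a/Arf-/- cells left less room for a fall was not tested. Ppbp went opposite ways, with 10.86 and 10.91 against 10.43 and 10.41 in Ink4a/Arf-/- cells, a difference of 0.46 there and a difference of differences of -3.39 ± 0.13 (limma, adjusted p = 0.00581). Both Ezh2 -/- arrays lay above both fx/fx arrays in that background, while in Ink4a/Arf+/+ cells the Ezh2 -/- array was the lower one.

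Further genes that passed with a more positive difference in Ink4a/Arf+/+ cells were Csdc2, Heph, which encodes the iron oxidase hephaestin, Zic2, Zic5, the anion transporter Slc26a7, Prdm6, Slc22a23 and 3632451O06Rik (limma, adjusted p = 0.0235 for each). Htr1b passed with a more negative one, at 11.82 and 11.79 against 11.79 and 11.87 in Ink4a/Arf-/- cells (limma, -2.20 ± 0.13, adjusted p = 0.0146), as did Des and Adamts15 (limma, adjusted p = 0.0235 for each) and Stmn2, Lrrtm3 and Il1rl1 (limma, adjusted p = 0.0237 for each). Rpl13, a ribosomal protein gene, passed with 1 of its 9 probe sets at -3.01 in Ink4a/Arf+/+ cells, where the other 8 lay between -0.25 and 0.84, so it was not counted as a change of the gene. Fabp7 and Rgs5 were higher in both backgrounds, Fabp7 by 2.27 and 0.76 and Rgs5 by 2.36 and 0.61, and by more in Ink4a/Arf+/+ cells (limma, adjusted p = 0.0237 and 0.0276).

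By gene 88 of 20723 passed the test (0.425%). Among the lists, 5 of 39 Hox genes passed, namely Hoxc8, Hoxc10, Hoxb9, Hoxc12 and Hoxc5, all more positive in Ink4a/Arf+/+ cells. So did 5 of the 14 Msx, Dlx and Zic factors. Of the 30 mitosis genes 0 passed in limma, with 12 at an unadjusted p below 0.05, and of the 54 replication genes 0 passed, again with 12. Of the p53 targets, histones and lipid synthesis genes 0 passed in limma, with 7 of 26, 9 of 40 and 6 of 30 at an unadjusted p below 0.05, where 2273 of 20723 genes had one. Pmp2, Pdgfra and Dock11 were the 3 of the 30 highest and lowest genes that did not pass (limma, adjusted p = 0.0571, 0.0719 and 0.0612). Eya2 did not pass either (limma, adjusted p = 0.0633).

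**Figure D5:**
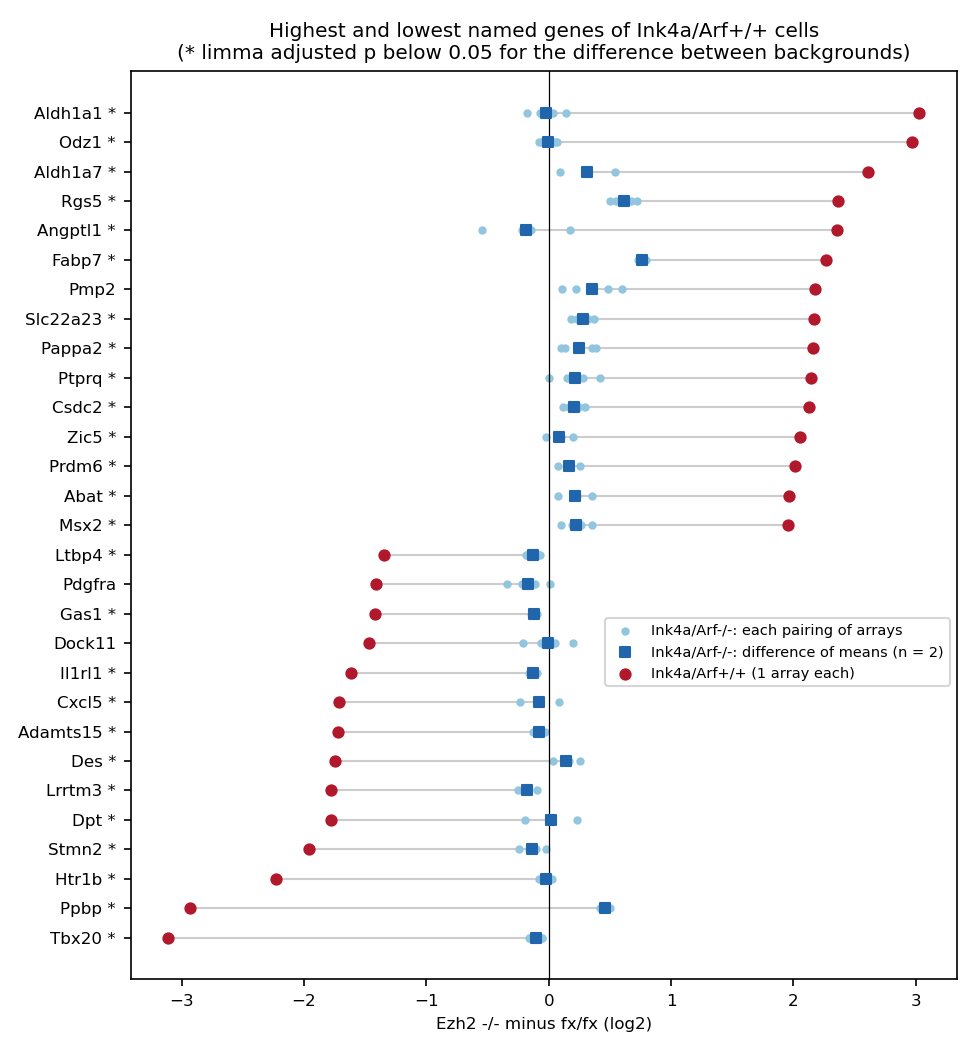
Log2 difference (Ezh2 -/- minus fx/fx) of the highest and lowest named genes of Ink4a/Arf+/+ cells (red, 1 array each) beside Ink4a/Arf-/- cells (dark blue squares, difference of means of 2 arrays; light blue, each pairing of single arrays), with an asterisk where the backgrounds differed in limma. Dark squares lie between -0.18 and 0.76, near 0 for most genes, and Ppbp has opposite signs at -2.93 and 0.46.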

How the data were processed

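RNA of 6 mouse embryonic fibroblast samples was measured on Affymetrix arrays. The deposited tables hold log2 levels per probe set, and the authors' normalization is, in the sources used here, not given. Per the submitters' processing notes limma was used. The tables for Ink4a/Arf+/+ and Ink4a/Arf-/- cells sit on different overall levels, so levels were compared within a table only. Differences and their spread were set side by side across the tables, and whether the tables were processed alike is not given. Fold changes and p-values in the tables were not used. Symbols came from the Ink4a/Arf-/- table through the probe set ID, because 26 in the other had turned into dates. RefSeq held 18406 of the 20723 symbols as current and 2005 as older names, and 312 did not match.

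The difference is the log2 level of Ezh2 -/- minus that of fx/fx. Each gene took the probe set with the highest mean level. Named genes were Ezh2, Cdkn2a, the 15 highest and 15 lowest with a brighter array above its median and a proper gene name, the furthest members of each list, and the 10 smallest p in each direction of the background test. That test was limma 3.58.1 in R 4.3.3 with Benjamini-Hochberg adjustment over all probe sets, on 2 residual degrees of freedom, and was tested on simulated data. The labels do not say whether replicates were separate cultures, so p-values measure the spread between these arrays. The number of arrays limits the precision. Alternatives were the fold threshold, normalization, a dim filter, a variance trend, the replicate block and left-out arrays. Members and lists were chosen with earlier results of these data known. Other tools were Python 3.11.15, pandas 2.3.3, numpy 2.4.6 and matplotlib 3.10.9. Some genes that the naming rule takes are not reported here.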

Additional observations from a re-analysis of the deposited data

Results flagged for a closer look

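The genes given here are those named in the report for which limma called the Ezh2 difference of Ink4a/Arf+/+ cells different from that of Ink4a/Arf-/- cells, at a Benjamini-Hochberg adjusted p below 0.05. There were 47, of which 30 had a more positive and 17 a more negative difference in Ink4a/Arf+/+ cells, and each value is the difference of the log2 differences, Ink4a/Arf+/+ minus Ink4a/Arf-/-. Transcription factors and patterning genes with a positive value were Zic5 1.97, Zic2 1.86, Prdm6 1.85, Msx2 1.73, Hoxc8 1.67, Hoxc10 1.61, Hoxb9 1.42, Zic4 1.38, Hoxc12 1.08, Dlx5 1.05 and Hoxc5 1.02. Enzymes and transporters were Aldh1a1 3.05, Aldh1a7 2.29, Heph 1.97, Slc22a23 1.89, Slc26a7 1.76 and Abat 1.74. Secreted and matrix proteins were Angptl1 2.54, Pappa2 1.92, Igf2 1.504, Eln 1.30, Mmp13 1.18 and Sfrp4 1.09. The other positive values were Odz1 2.97, Ptprq 1.93, Csdc2 1.92, Rgs5 1.75, 3632451O06Rik 1.67, Fabp7 1.51 and Nkd1 1.30. Among the negative values, the transcription factor genes were Sox11 -1.13 and Tbx20 -3.004. Secreted, matrix and protease genes were Fbln1 -1.21, Plau -1.21, Ltbp4 -1.22, Adamts15 -1.64, Cxcl5 -1.64, Dpt -1.80 and Ppbp -3.39. Receptor, adhesion and junction genes were Gas1 -1.30, Il1rl1 -1.49, Lrrtm3 -1.60 and Htr1b -2.20. The remaining ones were Nnat -1.08, Stmn2 -1.83, Des -1.89 and Rpl13 -2.93, and the value of Rpl13 is that of 1 of its 9 probe sets.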

How the results depend on the processing

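With 1 array per genotype in Ink4a/Arf+/+ cells, the 2-fold counts have no replicate check and depend on the threshold. At 1.5-fold, 616 probe sets were higher and 427 lower in place of 186 and 73. Counted by gene, 162 were higher and 53 lower, and with the median over a gene's probe sets 154 and 48. Between replicates, 15 (Ezh2 -/-) and 37 (fx/fx) probe sets 2-fold apart became 3 and 12 without the dimmest 30%, and 90 and 207 at 1.5-fold. The limma counts of background differences, 64 more positive and 31 more negative, were 125 and 82 after quantile normalization, 325 and 302 with a variance trend, and 214 and 141 without the dimmest 30%. With 1 Ink4a/Arf-/- array left out they ranged from 28 to 168 and from 16 to 77. The replicate block, with the replicate number as a term, gave 2 and 4, and leaves fewer residual degrees of freedom. Deviations of same-numbered arrays correlated at 0.026 across probe sets. The labels do not say whether same-numbered arrays share a culture or a batch, and this correlation cannot decide it. For this test the 10 genes with the smallest p in each direction were followed, 20 in all. Of these, 20 passed after quantile normalization, 20 with a variance trend and 5 under the replicate block. Without the dimmest 30%, 18 of the 18 that remained passed. With 1 array left out, 0 of the 20 changed direction. The cause of these shifts was not tested. Of 54 list medians under 269 alternative values, 43 moved by more than the replicate spread, and 2 medians of at least 0.05 changed sign, germline genes from 0.082 to -0.028 without the dimmest 30% and erythroid genes from -0.096 to 0.050 as a mean. The deposited value table equalled the tables used, with a largest difference of 0, and gave no separate value.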

Other observations

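Gene families chosen after the values were seen held several of the genes past 2-fold. Of 31 semaphorin, plexin and neuropilin genes, which guide axons and vessels, 3 were at least 2-fold higher, where 0.782% of all genes were. All 3 were class 3 semaphorins. Sema3d was at 10.61 in Ezh2 -/- and 8.69 in fx/fx cells, Sema3e at 10.50 and 9.23, and Sema3c at 11.43 and 10.18. The family's median log2 difference was 0.046. Of 22 ephrins and Eph receptors 2 were past 2-fold, Epha3 at 10.86 and 9.07 and Efna3 with a difference of 1.501, although the other probe set of Efna3 read the same on both arrays. Of 10 high-mobility-group genes 10 were lower, where 47.2% of all genes were, with a median of -0.20 and Hmgb3 the lowest at -1.04. In Ink4a/Arf-/- cells 9 of the 10 were lower, where 60.4% of all genes were, with a median of -0.14.

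In Ink4a/Arf+/+ cells, 417 probe sets had exactly the same value on both arrays, against 21 and 12 between the replicate arrays of Ink4a/Arf-/- cells. The second probe sets of Ebf2 and Efna3 were among them.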
